A study of Rattus norvegicus with 28 samples.

Results

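Hspa12a and 8 genes of the cytosolic heat shock system were followed through INS-1 cells, a rat insulinoma line used as a model of the pancreatic beta cell. They were found as the rows of the deposited table of TPM (read density over a transcript, as a share of that of all transcripts in the library) that carry their symbols, with 1 transcript kept per symbol, the one of highest mean TPM over the 28 libraries. All 9 genes were among the 17455 symbols of the table, and 8 of them passed the filter on low values (a mean of at least 1 TPM) that left 10275 genes for testing. Hspb1, the small heat shock protein HSP27, was the exception. It was listed at 0 in 25 of the 28 libraries and did not go above 0.08 TPM in the other 3, with 5 fragments in all. Hspa12a was chosen by its TPM values in WT cells, which dropped after 16 h of Ex-4, so its values in every comparison that uses untreated WT or WT 16 h Ex-4 are given as a description, with no test.

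The cells were wild type (WT) or carried Med14 S983A, a CRISPR knock-in that replaces serine by alanine at a protein kinase A site of the Mediator subunit MED14. Per the labels, cells were moved to serum-free medium before treatment. Both genotypes were left untreated (CON), given 10 nM of the GLP-1 receptor agonist exendin-4 (Ex-4), or given 10 µM of the adenylyl cyclase activator forskolin (FSK), each for 1, 8 or 16 h, which made 14 groups of 2 libraries. The single CON group of each genotype served all 3 times, so the comparisons with CON share their control libraries. The paper states that its experiments were done in replicates with 2 knock-in lines made independently. The knock-in lines were grown from sorted single cells. The labels do not tell which line these libraries came from, so a difference between genotypes cannot be told apart from a difference between clones. The methods call the replicates biological but do not say that the libraries of a group came from separate cultures, and p-values then measure the spread between these libraries.

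HSP70 proteins bind and release unfolded stretches of other proteins in a cycle driven by ATP. J-domain proteins such as DNAJB1 hand them their clients, the HSP110 proteins HSPH1 and HSPA4 exchange their nucleotide, and HSP90 takes over clients such as kinases and steroid receptors at a later stage of folding. HSF1 is the transcription factor that turns these genes on when unfolded protein accumulates in the cytosol, by binding heat shock elements (HSEs), repeats of the unit NGAAN in alternating orientation. HSPA12A is a distant relative of HSP70 with an atypical ATPase domain. cAMP, which both agents raise, acts on transcription largely through CREB and its site, the cAMP response element (CRE).

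Promoter sequence was found for 6 of the 9 genes in RefSeq windows of 300 bases on GRCr8, from 250 bases before the start of transcription to 50 bases from it (Hspa8, Hspa4, Hsph1, Hsp90ab1, Dnajb1 and Hspb1). Hspa12a, Hsp90aa1 and Hsf1 had no entry. The TPM table is on rn6, so these positions are not those of the transcripts. Windows were searched on both strands for an HSE of 3 units (GAANNTTCNNGAA or TTCNNGAANNTTC), an HSE of 2 units (GAANNTTC or TTCNNGAA, each of which also lies within the HSE of 3 units), the full CRE TGACGTCA and the short CRE TGACG or CGTCA, which lies within the full site, and the CCAAT box. The 4 windows below are shown because they belong to the 4 genes whose response to 16 h FSK differed most between genotypes, of the 7 for which that difference was tested. Capitals mark HSEs of 2 or 3 units and full or short CREs. The windows lie at chr8:50080264-50080563 (plus strand), chr12:10427118-10427417 (plus strand), chr10:37949786-37950085 (minus strand) and chr9:22930173-22930472 (plus strand), and each is written 5′ to 3′ along its gene.
Hspa8: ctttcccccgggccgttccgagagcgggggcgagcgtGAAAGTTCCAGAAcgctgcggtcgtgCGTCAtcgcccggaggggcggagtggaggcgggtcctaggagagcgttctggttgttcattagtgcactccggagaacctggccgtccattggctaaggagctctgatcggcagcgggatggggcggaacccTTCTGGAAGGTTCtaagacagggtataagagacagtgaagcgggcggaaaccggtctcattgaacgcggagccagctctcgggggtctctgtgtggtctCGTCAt
Hsph1: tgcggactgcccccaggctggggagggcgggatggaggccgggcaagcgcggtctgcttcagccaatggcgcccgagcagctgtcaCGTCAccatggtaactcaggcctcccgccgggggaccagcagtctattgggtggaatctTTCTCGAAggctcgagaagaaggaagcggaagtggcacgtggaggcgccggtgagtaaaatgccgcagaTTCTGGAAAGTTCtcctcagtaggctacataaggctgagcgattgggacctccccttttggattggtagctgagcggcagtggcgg
Hspa4: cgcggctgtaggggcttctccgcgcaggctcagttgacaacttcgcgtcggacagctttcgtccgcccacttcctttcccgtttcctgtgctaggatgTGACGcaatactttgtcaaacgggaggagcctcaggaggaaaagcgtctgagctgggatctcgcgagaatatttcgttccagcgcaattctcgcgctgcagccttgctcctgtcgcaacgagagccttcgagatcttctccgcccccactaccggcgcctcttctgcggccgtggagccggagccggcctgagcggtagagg
Hsp90ab1: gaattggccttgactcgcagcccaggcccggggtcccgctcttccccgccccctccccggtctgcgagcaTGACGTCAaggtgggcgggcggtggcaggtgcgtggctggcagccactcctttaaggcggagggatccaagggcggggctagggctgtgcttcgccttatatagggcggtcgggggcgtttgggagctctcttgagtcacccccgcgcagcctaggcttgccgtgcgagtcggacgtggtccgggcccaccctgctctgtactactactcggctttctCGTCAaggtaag

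Hspa8 held 2 HSEs of 3 units, which began 213 and 55 bases before the start, and Hsph1 held 1, which began 36 bases before it. Such an element was in 0.798% of the 33469 windows searched. Hspa4 and Hsp90ab1 held neither kind of HSE in these windows. The HSE of 2 units occurred 4 times in Hspa8, 3 times in Hsph1 and 2 times each in Dnajb1 and Hspb1, against a share of 15.9% of all windows with at least 1. Hsp90ab1 alone among the 6 genes held a full CRE, beginning 180 bases before its start, a site found in 1.83% of windows. A short CRE was in the windows of Hspa8, Hsph1, Hspa4, Dnajb1 and Hsp90ab1 and in 21.2% of all windows. A CCAAT box was in 37.5% of all windows and in 4 of the 6. These matches describe the letters of the windows and show no binding.

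**Figure D1:**
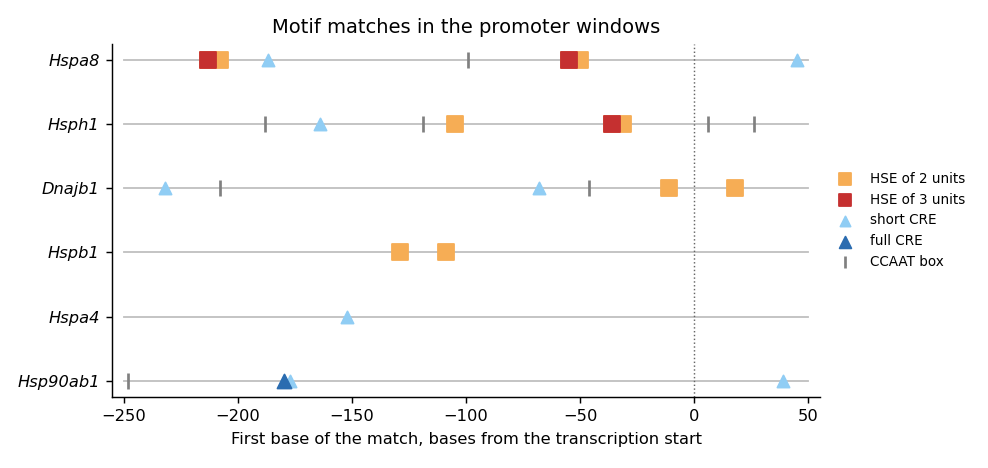
Motif matches in the promoter windows of 6 genes, with the distance of the first base of each match from the transcription start on the horizontal axis. Red squares are HSEs of 3 units, orange squares HSEs of 2 units, dark and light triangles full and short CREs, and grey ticks CCAAT boxes. Red squares stand only in Hspa8 (2) and Hsph1 (1) among these 6 windows.

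Sequencing depth was 42551135 to 57231979 fragments per library, except for replicate 2 of Med14 S983A at 8 h FSK with 92635960. Replicates correlated at r = 0.9983 to 0.9991 over the tested genes. All 11 beta cell markers on the list had a mean of at least 1 TPM, of 10 markers of other islet or pancreatic cells only Gcg and Sox9 did, and none of 7 stromal, endothelial and immune markers did. TPM values are shares of a library, and the median log2 change of all tested genes was not 0: it was -0.34 at 8 h FSK and -0.20 at 16 h FSK in WT, -0.28 and -0.10 at the same times in Med14 S983A, and -0.16 at 16 h Ex-4 in WT. Changes in the other comparisons with CON were centred between -0.11 and -0.03. Changes below are on the log2(TPM + 1) scale, and a gene is called, or said to rise or fall, at an adjusted p (limma, Benjamini-Hochberg over 10275 genes) under 0.05 with a change over 1.5-fold.

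Hspa12a (NM_001107445, rn6 chromosome 1, 279946811 to 280015358, minus strand) was at 39.4 and 37.8 TPM in the 2 untreated WT libraries. It stood at 35.0 and 35.1 TPM after 1 h of Ex-4, at 10.3 and 10.1 TPM after 8 h and at 8.52 and 8.64 TPM after 16 h. After FSK it was at 36.2 and 34.2 TPM at 1 h, 4.85 and 5.26 TPM at 8 h, and 4.12 and 4.77 TPM at 16 h. WT cells thus kept most of the transcript for the first hour, and by 8 h had a mean 3.78-fold below CON with Ex-4 and 7.63-fold below CON with FSK. At 16 h the means were 4.50-fold and 8.68-fold below CON. The log2 changes were -1.82 and -2.05 at 8 and 16 h Ex-4 and -2.71 and -2.86 at 8 and 16 h FSK.

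In Med14 S983A cells Hspa12a was already low without treatment, at 5.56 and 5.09 TPM, 7.24-fold below WT CON by the means. That level lay between those of WT cells at 16 h Ex-4 and at 16 h FSK, and it overlapped the level of WT cells at 8 h FSK. The transcript was at 4.94 and 5.05 TPM at 1 h Ex-4, 3.85 and 3.99 TPM at 8 h and 2.88 and 2.82 TPM at 16 h. With FSK it was at 4.51 and 4.53 TPM at 1 h, 2.54 and 2.65 TPM at 8 h, and 2.5 and 2.34 TPM at 16 h. All 6 treated groups lay below the CON libraries of this genotype. Here the rule that chose the gene used none of the libraries, and limma called a fall at 16 h Ex-4 (-0.72, SE 0.07, adjusted p = 9.65e-10), at 8 h FSK (-0.81, SE 0.07, adjusted p = 1.6e-11) and at 16 h FSK (-0.89, SE 0.07, adjusted p = 4.48e-12). At 16 h Ex-4 7.15% of all tested genes were called lower, at 8 h FSK 34.5% and at 16 h FSK 21.1%. The falls at 16 h were called under all 14 alternatives each, and that at 8 h FSK was below 1.5-fold (-0.48) after each library was centred on its median. The change at 8 h Ex-4 was -0.36 (SE 0.07, adjusted p = 6.02e-05), under 1.5-fold.

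**Figure D2:**
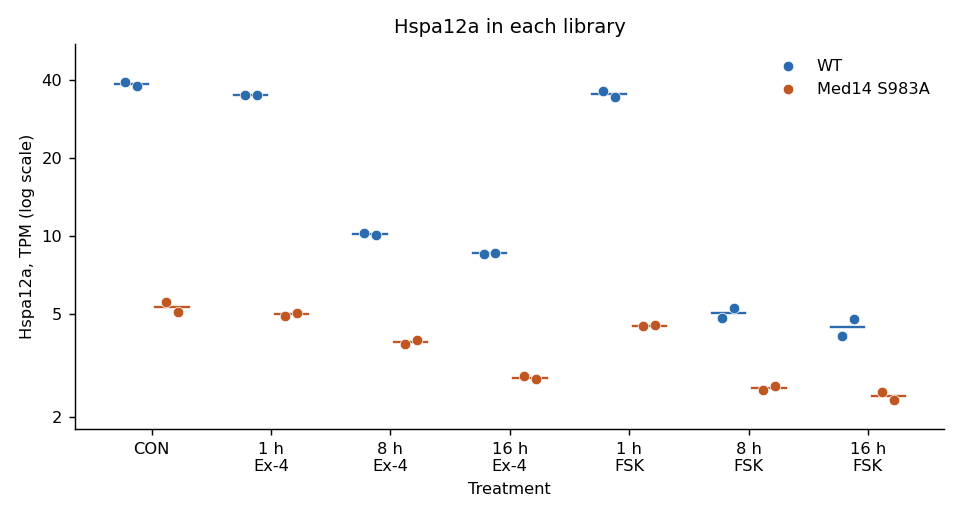
Hspa12a in TPM (log scale) in each of the 28 libraries, by treatment, with WT in blue and Med14 S983A in orange and lines at the group means. WT CON and 1 h libraries lie at 34.2 to 39.4 TPM, and the Med14 S983A libraries lie at 2.34 to 5.56 TPM throughout.

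Ordered by mean level, WT CON came first (38.6 TPM), followed by WT 1 h FSK (35.2), WT 1 h Ex-4 (35.0), WT 8 h Ex-4 (10.2) and WT 16 h Ex-4 (8.58). Then came Med14 S983A CON (5.33), WT 8 h FSK (5.06), Med14 S983A 1 h Ex-4 (4.99), Med14 S983A 1 h FSK (4.52) and WT 16 h FSK (4.45). The last places were those of Med14 S983A at 8 h Ex-4 (3.92), 16 h Ex-4 (2.85), 8 h FSK (2.59) and 16 h FSK (2.42). Neighbours whose libraries overlapped were the WT 1 h groups, Med14 S983A CON with WT 8 h FSK, WT 8 h FSK with Med14 S983A 1 h Ex-4, and Med14 S983A 1 h FSK with WT 16 h FSK. In WT at 8 h, Hspa12a was higher with Ex-4 than with FSK (0.89, SE 0.07, adjusted p = 6.43e-12, where 23.3% of genes were called higher), and at 1 h the libraries of the 2 agents overlapped. The same difference at 8 h in Med14 S983A was 0.45 (adjusted p = 7.27e-07), under 1.5-fold. It was 0.15 with median-centring, and it was called with DESeq2 on ERCC size factors (0.71).

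The log2 change from CON differed between genotypes by 1.46 and 1.33 at 8 and 16 h Ex-4 and by 1.89 and 1.98 at 8 and 16 h FSK, a smaller drop in Med14 S983A, which are descriptions. The value at 16 h Ex-4 was 0.94 with ERCC scaling and 0.84 with DESeq2 on ERCC size factors. Genes on either side of Hspa12a on rn6 chromosome 1 were not lower to a like extent without treatment: over the 35 tested neighbours (25 before it and 10 after it) the median difference between genotypes was -0.15, and the 5 that were called were all lower, where 11.1% of all tested genes were called lower.

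The 5 genes of at least 10 TPM whose 14 group means correlated best with those of Hspa12a on the log2 scale, out of 7677 compared, were Sh3kbp1 (Pearson r = 0.989), Tm6sf2 (0.980), Evi5 (0.974), Ttc25 (0.972) and Map7 (0.969). Tm6sf2 came closest in size, with mean levels of 43.5 TPM in WT CON, 6.34 TPM in WT 16 h FSK, 4.66 TPM in Med14 S983A CON and 2.73 TPM in Med14 S983A 16 h FSK. Sh3kbp1 went from 34.6 to 10.5 TPM over the same pair of WT groups and from 11.9 to 9.19 TPM in Med14 S983A. The 14 points share the large step between genotypes, and the correlations are given as a description.

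The HSP70 and HSP110 genes, in contrast to Hspa12a, were abundant in every library. Hspa8, the constitutive cytosolic HSP70 (NM_024351_3, rn6 chromosome 8, 44989401 to 44993261, plus strand), was at 675 and 713 TPM in WT CON and at 608 and 590.3 TPM in Med14 S983A CON. Near-identical Hspa8 copies on rn6 chromosomes 11 and 6 took the remaining part of the symbol's TPM (97.9% was on the transcript used), and reads that could belong to either are uncertain. At 16 h FSK it was at 800.3 and 806 TPM in WT and at 1164 and 1192 TPM in Med14 S983A, the highest of the 14 groups, with no overlap with any other. In the mutant it was still at 653 and 671 TPM at 8 h FSK. Hspa8 rose 1.97-fold in Med14 S983A at 16 h FSK (log2 change 0.97, SE 0.05, adjusted p = 6.67e-16). In WT the change at 16 h FSK was 0.21 (SE 0.05, adjusted p = 0.000198), below 1.5-fold. It reached 0.60 among 14 alternatives, of which 13 kept the direction and the lack of a call.

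Hsph1, the inducible HSP110 (NM_001011901, rn6 chromosome 12), behaved alike. It was at 129 and 130.4 TPM in WT CON and 141 and 139 TPM in WT 16 h FSK, and at 109 and 100.2 TPM in Med14 S983A CON and 208 and 208 TPM in Med14 S983A 16 h FSK. The next highest of the 28 libraries was at 141 TPM. The rise in Med14 S983A was 1.99-fold (0.99, SE 0.05, adjusted p = 3.8e-15). In Med14 S983A both genes were called under all 14 alternatives, at 0.95 to 1.22 for Hspa8 and 0.93 to 1.24 for Hsph1. In WT the change of Hsph1 at 16 h FSK was 0.11 (SE 0.05, adjusted p = 0.0536), and it reached 0.49 among the alternatives.

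Hspa4, the other HSP110 (NM_153629, rn6 chromosome 10), changed earlier. It was at 195 and 194 TPM in WT CON and at 151 and 132 TPM in Med14 S983A CON, a wider gap between replicates than in most groups. At 8 h FSK it was at 213 and 218 TPM in Med14 S983A and at 214 and 218 TPM in WT, and at 16 h FSK at 241 and 243 TPM against 223 and 231 TPM. From different CON levels both genotypes thus came to like levels at 8 h. The gene rose in Med14 S983A at 8 h (0.61, SE 0.05, adjusted p = 7.01e-11, where 11.6% of all genes were called higher) and 16 h FSK (0.77, SE 0.05, adjusted p = 9.57e-13). The 8 h call was lost without CON replicate 2 (0.51), with scaling to the ERCC spike-in (0.52) and with DESeq2 on ERCC size factors. It was kept in 11 of 14 alternatives. The 16 h call was not lost under any of 14 alternatives (0.68 to 1.02). In WT the change at 16 h FSK was 0.22 (SE 0.05, adjusted p = 0.00045), below 1.5-fold, and 0.61 with ERCC scaling.

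**Figure D3:**
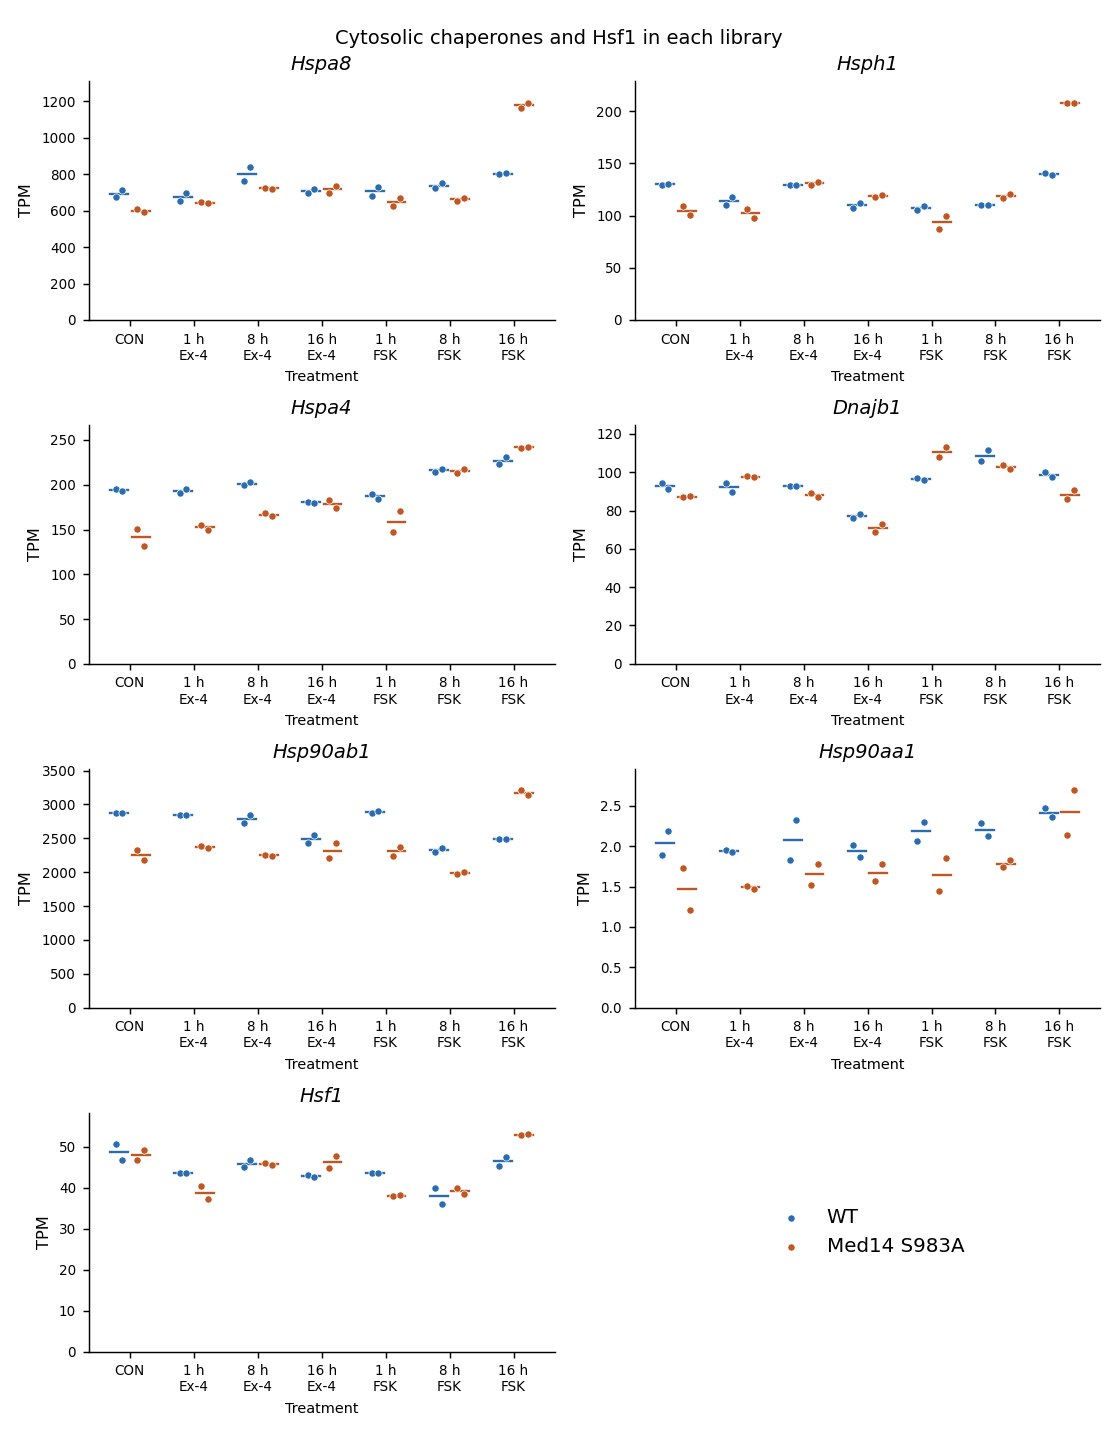
TPM in each library for 7 genes, by treatment, with WT in blue and Med14 S983A in orange and lines at the group means. Every axis starts at 0. At 16 h FSK the Med14 S983A libraries are above all others for Hspa8 (1164 and 1192 TPM), Hsph1 (208 and 208 TPM) and Hsp90ab1 (3206 and 3138 TPM).

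The HSP90 genes lay at opposite ends of the range. Hsp90ab1, the constitutive cytosolic HSP90 (NM_001004082, rn6 chromosome 9), was the most abundant of the 9 at 1968 to 3206 TPM. It was at 2880.2 and 2869 TPM in WT CON and at 2323 and 2185 TPM in Med14 S983A CON. At 16 h FSK it was at 2484 and 2487 TPM in WT, under its CON libraries, and at 3206 and 3138 TPM in Med14 S983A, above them. Its change in Med14 S983A was 0.49 (SE 0.04, adjusted p = 6.54e-11), 1.41-fold and so not called on the TPM scale, and it was past 1.5-fold when libraries were centred on their medians (0.64) or scaled to ERCC (0.73). In WT the value at 16 h FSK was -0.21 (adjusted p = 6.38e-05), which turned to 0.03 with median-centring and 0.17 with ERCC scaling. At 8 h FSK it was -0.31 (adjusted p = 2.43e-07) in WT and turned to 0.08 with median-centring.

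Hsp90aa1, the stress-inducible HSP90, was at 1.21 to 2.69 TPM. rn6 holds the gene at 2 places on chromosome 6 with transcripts of the same 2761 bases (NM_175761_2 at 135107265 to 135112793 and NM_175761 at 135044841 to 135050369), 78.3% of its TPM was on the first, which is used here, and its level is uncertain because reads that match both could be split or lost. It was at 1.74 and 1.21 TPM in Med14 S983A CON and at 2.15 and 2.69 TPM at 16 h FSK (0.47, SE 0.11, adjusted p = 0.000262), below 1.5-fold on the log2(TPM + 1) scale and past it with a pseudocount of 0.1 (0.69) and in the count tests on recovered fragments (0.80 with edgeR). The change was positive in all 13 alternatives (0.32 to 0.96), and only 5 of them left it uncalled.

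Dnajb1, the J-domain partner of HSP70 (NM_001108441, rn6 chromosome 19), and Hsf1 (NM_024393, rn6 chromosome 7) were not called in the mutant at 16 h FSK. Dnajb1 was at 86.8 and 87.4 TPM in Med14 S983A CON and 86.1 and 90.5 TPM at 16 h FSK (0.02, SE 0.04, adjusted p = 0.685, and 0.25 with ERCC scaling). Its highest group by mean was Med14 S983A at 1 h FSK, at 108 and 113 TPM (0.34, SE 0.04, adjusted p = 1.01e-07, under 1.5-fold, and 0.14 with ERCC scaling). The difference of that change from WT was 0.29 (SE 0.06, adjusted p = 0.00172), under 1.5-fold and 0.0251 with ERCC scaling, where 1.64% of all genes were called. Its lowest groups were the 16 h Ex-4 ones, at 76.1 and 78.4 TPM in WT (-0.26, SE 0.04, adjusted p = 4.43e-06) and 68.9 and 73.2 TPM in Med14 S983A (-0.29, SE 0.04, adjusted p = 9.62e-07). The WT value turned to 0.05 with ERCC scaling. At 8 h FSK its changes of 0.23 in WT and 0.24 in Med14 S983A stood 0.56 and 0.52 above the median of all genes, and that in WT was called with median-centring (0.62).

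Hsf1 stayed at 36.2 to 53.1 TPM in all libraries. Its highest libraries were those of Med14 S983A at 16 h FSK, at 52.9 and 53.1 TPM against 46.8 and 49.3 TPM in CON, a change of 0.14 (SE 0.05, adjusted p = 0.016), or 0.37 with ERCC scaling. The values at 8 h FSK were -0.35 in WT (adjusted p = 7.6e-07) and -0.29 in Med14 S983A (adjusted p = 1.28e-05), and turned to 0.04 and 0.05 with median-centring. At 1 h in Med14 S983A, Hsf1 was at 40.4 and 37.2 TPM with Ex-4 (-0.30, adjusted p = 6.23e-05) and at 37.9 and 38.2 TPM with FSK (-0.33, adjusted p = 6.34e-06), below 1.5-fold. The FSK value was -0.18 with median-centring and -0.52 with ERCC scaling. The group means of Dnajb1 were most like those of Rab11fip1 (r = 0.890), Tinf2 (0.860), Rbm14 (0.847), Ppp2r1b (0.836) and Prcp (0.827) over the 14 groups and 7677 genes. Among pairs of the 7 genes of at least 10 TPM, Hspa8 with Hsph1 had the highest r (0.914).

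Counted over comparisons, limma called none of the 7 genes tested in WT with Ex-4 at any time (0 of 21 values, with 7 at an unadjusted p under 0.05). edgeR and DESeq2 on recovered fragments gave 0 as well. Of all genes, 2.87%, 9.60% and 11.8% were called at 1, 8 and 16 h. With FSK in WT the count was likewise 0 of 21 (12 at an unadjusted p under 0.05, 0 called by edgeR, 0 by DESeq2 and 2 by DESeq2 with ERCC size factors), where 7.47%, 43.6% and 34.5% of all genes were called. In Med14 S983A, 1 of 24 values was called with Ex-4, the fall of Hspa12a at 16 h (3.04%, 6.30% and 11.9% of all genes called at the 3 times), and 6 of 24 with FSK (10.4%, 46.1% and 33.3%). For Ex-4 the other 3 tests called 1 each. For FSK, edgeR called 7, DESeq2 9 and DESeq2 with ERCC size factors 7. At 16 h FSK 3 of 8 rose by limma, where 12.2% of all tested genes were called higher, and 1 fell. At that time edgeR called 5 of the 8, DESeq2 6 and DESeq2 with ERCC size factors 6. The median change of the 8 genes was 0.48 and that of all tested genes -0.10. Of the called genes at that time 36.7% were higher on the TPM scale, 52.1% with median-centring and 58.6% with ERCC scaling.

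**Figure D4:**
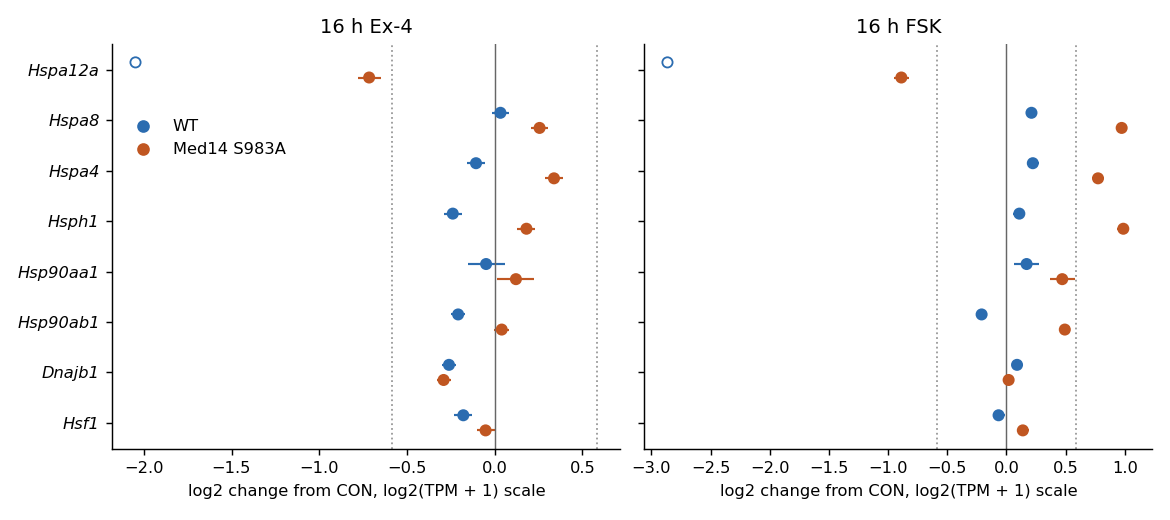
log2 change from CON at 16 h Ex-4 (left) and 16 h FSK (right), log2(TPM + 1) scale, for 8 genes in WT (blue) and Med14 S983A (orange), with the standard error as a bar and dotted lines at 1.5-fold. Open circles are the WT values of Hspa12a, -2.05 and -2.86, which are described and not tested. With FSK, Hspa8, Hspa4 and Hsph1 of Med14 S983A lie beyond the right dotted line at 0.97, 0.77 and 0.99.

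Without treatment, the chaperones were lower in Med14 S983A than in WT by less than 1.5-fold: Hspa4 by -0.46 (SE 0.05, adjusted p = 3.04e-08), Hsp90ab1 by -0.35 (SE 0.04, adjusted p = 5.55e-08), Hsph1 by -0.31 (SE 0.05, adjusted p = 8.62e-06), Hsp90aa1 by -0.31 (SE 0.11, adjusted p = 0.0137) and Hspa8 by -0.21 (SE 0.05, adjusted p = 0.000306) on the log2 scale. All 5 kept that sign with median-centring (-0.37 to -0.12) and with ERCC scaling (-0.26 to -0.01, the last for Hspa8). Dnajb1 and Hsf1 differed less, with a sign that turned under both scalings. limma called 0 of 7 (6 at an unadjusted p under 0.05, and 0 called by edgeR or DESeq2), against 19.4% of all genes. Over the 50 tested neighbours of Hsp90ab1 on chromosome 9, the median difference was -0.24 and 13 were called lower, where 11.1% of all tested genes were. Around Hspa8 on chromosome 8 the median was -0.03, with 11 of 50 called lower and 2 higher. Around Hsp90aa1 on chromosome 6 it was -0.22, with 7 of 50 lower and 1 higher. Around Hspa4 on chromosome 10 it was -0.06, with 3 of 50 lower and 4 higher. Around Hsph1 on chromosome 12 it was -0.10, with 3 of 45 lower.

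The difference of the 16 h FSK response between genotypes, an interaction term in the fit, was past the threshold for 3 of the 7 genes tested, where 10.6% of all genes were called higher and 6.40% lower. It was 0.76 for Hspa8 (SE 0.07, adjusted p = 4.63e-10), 0.88 for Hsph1 (SE 0.07, adjusted p = 2.24e-10) and 0.70 for Hsp90ab1 (SE 0.06, adjusted p = 3.06e-10), each a larger change in Med14 S983A. For Hspa4 it was 0.55 (SE 0.07, adjusted p = 8.68e-07), just under 1.5-fold, and it was 0.65 without CON replicate 1 of Med14 S983A and 0.45 without CON replicate 2. With ERCC scaling the terms were 0.61 for Hspa8, 0.73 for Hsph1, 0.55 for Hsp90ab1 and 0.40 for Hspa4, the last 2 under 1.5-fold. DESeq2 with ERCC size factors called 2 terms, those of Hspa8 and Hsph1, and not that of Hsp90ab1. The median term of all genes was 0.08. Of the called terms 62.4% were positive on the TPM scale, 47.3% with median-centring and 40.5% with ERCC scaling. A positive term can be a larger rise or a smaller fall in the mutant. At 8 h FSK the largest term was that of Hspa4 (0.46, adjusted p = 1.48e-05), and limma called 0 of 7 (3 at an unadjusted p under 0.05, and 0 called by edgeR or DESeq2), where 13.9% of genes were called.

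With Ex-4 the corresponding terms were smaller. At 16 h they were 0.44 for Hspa4 (adjusted p = 3.82e-05), 0.42 for Hsph1 (adjusted p = 5.34e-05), 0.25 for Hsp90ab1 (adjusted p = 0.00153) and 0.22 for Hspa8 (adjusted p = 0.00813), but with ERCC scaling that of Hspa4 was 0.0129 and those of Hsph1, Hsp90ab1 and Hspa8 turned to -0.01, -0.19 and -0.21. None of 21 terms was called at 1, 8 and 16 h by limma, edgeR or DESeq2 (9 had an unadjusted p under 0.05), against 0.672%, 2.77% and 7.24% of all genes. Within Med14 S983A at 16 h, Hspa8 (-0.72, SE 0.05, adjusted p = 8.34e-13) and Hsph1 (-0.81, SE 0.05, adjusted p = 5.9e-13) were lower with Ex-4 than with FSK, where 5.76% of genes were called lower. The doses of the 2 agents are single ones and were not matched in cAMP.

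Other chaperone genes were taken from lists of the pathway, without the 9 genes above. Of 15 tested HSP90 co-chaperones, 7 had a called term for the 16 h FSK response, all positive (median 0.55), where 10.6% of all genes were called higher and the median of all genes was 0.08. With ERCC scaling 3 of 15 were called. The term is the response in Med14 S983A less that in WT. Against CON at 16 h FSK, 0 of the 15 were called higher and 3 lower in WT (median -0.24). In Med14 S983A 3 were called higher and 1 lower (median 0.34). Of all genes 34.5% were called in WT and 33.3% in Med14 S983A. The 7 called on the TPM scale were Ahsa1 (1.06), the activator of the HSP90 ATPase, Fkbp4 (1.07), Cacybp (0.83), Ptges3 (0.73), Ppid (0.71), Ahsa2 (0.70) and Tomm34 (0.59). They are named after their values were seen. Of these, Ahsa1, Ptges3 and Ppid also rose in Med14 S983A itself (0.64, 0.77 and 0.72). Tomm34 fell in WT (-1.11, SE 0.04, adjusted p = 1.47e-17) from 102 ± 2.88 to 46.7 ± 0.0594 TPM (SD, n = 2).

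Of 12 subunits of the CCT chaperonin and prefoldin, which fold actin and tubulin, 3 had a called term, all higher (median 0.52), and of 9 mitochondrial chaperones 4 did, all higher (median 0.50), against 10.6% of all genes and their median of 0.08. Both counts were 1 with ERCC scaling. Hspa9, the mitochondrial HSP70, rose from 237 ± 5.38 to 424 ± 18.4 TPM in WT at 16 h FSK (0.83, SE 0.05, adjusted p = 1.15e-14) and by 1.52 in Med14 S983A. Hscb, its co-chaperone in iron-sulfur cluster assembly, fell in WT (-0.72, SE 0.06, adjusted p = 2.8e-11). HSP40 proteins and other HSP70 co-chaperones had 2 called terms of 19, Dnajc2 (0.93) and Bag3 (0.73), both higher and both named after their values were seen, and a median of 0.19. That count is close to the 10.6% of all genes called higher. Dnaja4 fell in WT at 16 h FSK (-0.65, SE 0.07, adjusted p = 1.62e-09). The other HSP70 and HSP110 genes had 0 of 5 by limma (2 at an unadjusted p under 0.05), 1 of 5 by edgeR and 1 by DESeq2, both lower, and a median of -0.05. The inducible Hspa1a, at a mean of 1.31 TPM, had a term of -0.19.

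The chaperones of the endoplasmic reticulum moved in both genotypes. Of 12 tested, 10 rose in WT and 10 in Med14 S983A at 16 h FSK (medians 1.00 and 1.04), where 10.3% and 12.2% of all genes were called higher. At 8 h Ex-4, 8 rose in each genotype (medians 0.72 and 0.79), where 3.61% and 3.21% of all genes were called higher. At 16 h Ex-4, 8 rose in WT and 1 in Med14 S983A (medians 0.65 and 0.45), where 3.53% and 4.73% of all genes were called higher. Without treatment 5 of the 12 were called higher in Med14 S983A than in WT (median 0.34), where 8.29% of all genes were. The term for the difference between genotypes had a median of -0.20 at 16 h Ex-4 and -0.03 at 16 h FSK, and the single gene called at each time was lower. In WT, Dnajc3 rose from 43.8 ± 1.90 to 151 ± 1.33 TPM at 16 h FSK (1.77, SE 0.06, adjusted p = 1.71e-18) and Sdf2l1 from 48.2 ± 2.58 to 115 ± 1.24 TPM at 16 h Ex-4 (1.24, SE 0.05, adjusted p = 9.34e-17). Of the other small heat shock protein genes only Hspb6 was tested, and it fell at 16 h FSK in WT (-0.72, SE 0.06, adjusted p = 2.59e-11).

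**Figure D5:**
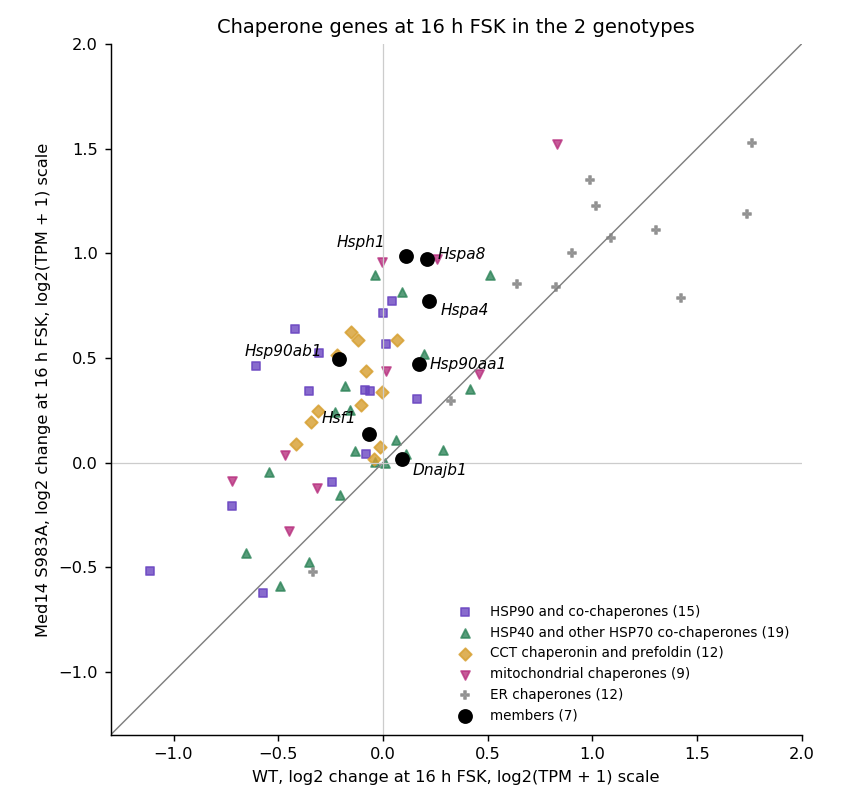
log2 change at 16 h FSK against CON in WT (horizontal) and Med14 S983A (vertical), log2(TPM + 1) scale, for 7 of the followed genes (black, named) and the genes of 5 chaperone lists, with the line of equal change. Hspa8, Hsph1, Hspa4 and Hsp90ab1 lie above the line, at 0.21, 0.11, 0.22 and -0.21 in WT and 0.97, 0.99, 0.77 and 0.49 in Med14 S983A, and the endoplasmic reticulum chaperones (grey) are on both sides of it.

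The beta cell markers moved along with these changes. Of 11 markers, 9 had a called term at 16 h FSK, all negative, that is, a lower response in Med14 S983A than in WT (median -0.87). Of all genes 6.40% were called lower in that term, and their median was 0.08. Against CON, 8 of the 11 fell and 2 rose in WT at 16 h FSK (median -0.92), where 34.5% of all genes were called. In Med14 S983A 9 fell (median -1.53), where 21.1% of all genes were called lower. The summed level of the 11 follows the most abundant, and Ins1 alone was at 33720 to 67830 TPM over the libraries. This sum was 51538 to 52482 TPM in WT CON and 77013 to 80020 TPM in WT 16 h FSK. It was 81163 to 90045 TPM in Med14 S983A CON and 53206 to 53891 TPM in Med14 S983A 16 h FSK. Of 10 markers of other islet and pancreatic cells, Gcg, the glucagon gene of alpha cells, moved as well. It was at 166 and 169 TPM in WT CON and 761 and 809 TPM in WT 16 h FSK, and at 6.09 and 6.56 TPM in Med14 S983A CON and 113 and 101 TPM in Med14 S983A 16 h FSK. Gcg was lower in Med14 S983A without treatment (-4.52, adjusted p = 8.07e-26), as Hspa12a was, and its term at 16 h FSK was higher (1.66, adjusted p = 4.19e-13). The other 9 markers summed to 0.74 to 3.39 TPM in every library, and Prss1 was at 0 in all. The part of either marker list in the changes of Hspa12a and the chaperones was not tested. With libraries centred on their medians, the changes of Hspa8, Hsph1 and Hspa4 in Med14 S983A at 16 h FSK were 1.12, 1.14 and 0.92.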

How the data were processed

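RNA was sequenced from 28 libraries of INS-1 cells, 2 in each of 14 groups. The authors added ERCC spike-in RNA, built directional libraries, aligned paired reads with STAR 2.5.3a to rn6 with the ERCC sequences, and deposited TPM values computed with HOMER 4.11.1 over RefSeq exons, together with ERCC counts. Here 1 transcript was kept per symbol (1676 dropped), genes with a mean under 1 TPM were left out, and log2(TPM + 1) was fitted with limma 3.58.1 (R 4.3.3) over all 28 libraries, with 14 group means, 14 residual degrees of freedom and Benjamini-Hochberg adjustment over 10275 genes. TPM keeps no depth by itself, but with the deposited ERCC counts each value gave its fragments. Counted as reads, at 2 to a fragment, 127388 detected values were under 1000. Of these, 100% were whole within 0.05 reads plus the rounding of TPM, where 23.5% would be by chance. edgeR 4.0.16 and DESeq2 1.42.0 on these fragments were alternatives, as were a pseudocount of 0.1, no filter or a mean of 5 TPM, median-centring, ERCC scaling, the libraries of a contrast alone, a replicate block and leaving out each library. Arms with 1 library left were taken to vary like the others. On simulated data for 16 h FSK in Med14 S983A (10058 genes), the limma step recovered 100% of 199 changed genes. The planted changes were 2-fold or more, rises and falls alike, with the other genes unchanged. Its noise was preset at the same level for every gene and was not estimated from these libraries. The simulation therefore does not speak to smaller changes, to the choice of scaling or to recovery at the noise of these libraries. Replicates differed by more than sampling noise (chi-square per degree of freedom 2.46 to 9.74). Intervals of this kind and the SEs cover these libraries only. The 9 genes, the chaperone lists and the rule for named genes (in each list the called gene with the largest rise and fall in WT at 16 h FSK and 16 h Ex-4, and the 5 genes most like Hspa12a and Dnajb1) were chosen with earlier results of these data known. Promoter windows and names came from RefSeq tables (GRCr8).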

Additional observations from a re-analysis of the deposited data

Results flagged for a closer look

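For 3 genes the response to 16 h FSK differed between genotypes by the interaction term of the fit, with a larger change in Med14 S983A than in WT. The term was 0.70 for Hsp90ab1, 0.76 for Hspa8 and 0.88 for Hsph1 on the log2(TPM + 1) scale. In both libraries of the mutant all 3 genes were above every CON library of their genotype, whereas Hsp90ab1 in WT was below its CON libraries in both on the TPM scale, a direction that turned with median-centring, ERCC scaling and both DESeq2 fits. With ERCC scaling the term of Hsp90ab1 was 0.55, under 1.5-fold. It was also not called by DESeq2 with ERCC size factors, and the terms of Hspa8 and Hsph1 were called in both. What underlies the difference was not tested, and genotype cannot be told apart from clone.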

How the results depend on the processing

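With 2 libraries a group, limits are set by the scaling more than by the spread between libraries. Of 1213 recomputed values of 82 member changes, 1093 were counted as the same, which for tested changes means direction and call. The 82 include changes of Hspa12a that are described without a test and have no call, so the tally gives them no support. Without the fold minimum the member calls went from 0 to 7 (Ex-4 in WT), 0 to 11 (FSK in WT), 1 to 11 (Ex-4 in Med14 S983A), 6 to 20 (FSK in Med14 S983A), 0 to 5 (genotype at CON), 0 to 5 (Ex-4 interaction), 3 to 8 (FSK interaction) and 3 to 26 (Ex-4 against FSK). Calls for FSK in WT were 1 with median-centring, 2 with ERCC scaling and 2 with DESeq2 on ERCC size factors, and calls for Ex-4 against FSK were 7 with ERCC scaling, 5 with DESeq2 and 8 with DESeq2 on ERCC size factors. Leaving out a library gave 5 to 7 calls for FSK in Med14 S983A and 3 to 4 for its interaction, and did not alter the other counts. Replicate numbers did not pair the libraries (91 pairs of groups, r -0.28 to 0.283, 17 over 0.1), and a fit with the replicate number as a block left all 8 counts as they were (6 for FSK in Med14 S983A, 3 for the FSK interaction).

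Signs turned in 34 cases, of changes that were not called. With ERCC scaling and with DESeq2 on ERCC size factors, 16 h Ex-4 in WT gave 0.051 and 0.058 for Dnajb1, 0.11 and 0.11 for Hsp90ab1 and 0.0735 and 0.082 for Hsph1, and the 16 h Ex-4 interaction gave -0.19 and -0.17 for Hsp90ab1, -0.21 and -0.20 for Hspa8 and -0.0105 and -0.000266 for Hsph1. At 8 h FSK in WT, Hsf1 was 0.0407 with median-centring, Hsp90ab1 0.083 with median-centring, 0.0159 with edgeR and 0.0477 with DESeq2, and Hsph1 0.16, 0.0856 and 0.12 in the same order. At 16 h FSK in WT, Hsp90ab1 was 0.0313 with median-centring, 0.17 with ERCC scaling, 0.00748 with DESeq2 and 0.16 with DESeq2 on ERCC size factors. At 8 h FSK in Med14 S983A, Hsf1 was 0.0488 with median-centring and 0.0143 with DESeq2. For Ex-4 against FSK at 8 h in WT, median-centring gave -0.0011 for Hsf1, -0.0048 for Hsp90ab1 and -0.0393 for Hsph1, which was -0.00756 with edgeR and -0.0194 with DESeq2, and in Med14 S983A Hsf1 was -0.0816 with median-centring, -0.0312 with edgeR and -0.0561 with DESeq2. Leaving out 1 library moved Dnajb1 at 16 h FSK in Med14 S983A between -0.0171 and 0.054. The cause was not tested. Depth does not limit the abundant genes, and limits Hsp90aa1 (92.5 to 269.5 fragments per library) and Hspb1.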
